A study of Macaca mulatta with 16 samples.

Results

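The mRNA of the fetal rhesus macaque retina at 90 days of gestation was compared between a temporal punch, taken at the prospective fovea, and a nasal punch from the matching position across the optic nerve head. All genes with a CPM (read count scaled to library size) of 5 or more in either library were taken, which gave 11870 of the 28633 genes in the mRNA table. Of these, 11460 reached 5 CPM in both libraries, 212 reached it only in the temporal library and 198 only in the nasal library. The groups were untreated normal fetuses: 1 temporal and 1 nasal library at 90 days, and for the same genes 1 library per region at 150 days and the authors' means of 3 libraries per region at 50 days. The labels do not say whether both 90-day punches came from the same fetus. Each side is a single library, so no difference at 90 days has a replicate check, and the region cannot be told apart from the punch, the animal or the library.

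The fovea is the small central region of the primate retina that serves sharp vision. It is packed with cones, each wired to its own bipolar cell and ganglion cell, and it matures ahead of the rest of the retina. Retinal progenitors divide and give rise to ganglion cells, cones, horizontal cells and amacrine cells before bipolar cells, rods and Müller glia. Retinal blood vessels enter later from the optic nerve head, behind a front of migrating astrocytes, and they pass around the future fovea, which stays free of both. Along the vertical axis, dorsal and ventral retina are set apart by opposing transcription factors and by different enzymes that make retinoic acid.

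Every CPM value at 90 days was a whole multiple of the value of 1 read (100% within 0.01 reads), so reads could be recovered: 18778855 in the temporal library and 19851990 in the nasal library. A single read was worth 0.0506 CPM in the temporal library and 0.0470 CPM in the nasal library. Ratios of a single gene are given with an exact 95% Clopper-Pearson interval from its reads, which covers counting error between these libraries only and not the variation between fetuses. For counts over many genes, the log2 ratio of temporal over nasal CPM was taken after adding 1 CPM to each, and a gene was called 2-fold different from a log2 ratio of 1. CPM was not divided by gene length, so levels are compared between libraries and not between genes.

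The libraries were close over most genes. The median log2 ratio was 0.03, the 5th and 95th percentiles were -0.43 and 0.40, and 73.8% of the genes lay within 0.25 of 0. The temporal library was 2-fold or more higher for 94 genes, 0.792% of all genes compared, and the nasal library for 69 genes, 0.581%. The log2 ratio was above 0 for 55.3% of the genes and below 0 for 44.7%. Of the 94 genes, 42 were under 5 CPM in the nasal library, and of the 69 genes, 51 were under 5 CPM in the temporal library. The 10 most abundant transcripts were the same in both libraries and included COX1 with 3399 CPM in the temporal and 3171 CPM in the nasal library, MAP1B with 3038 and 2836 CPM, and MARCKS with 1858 and 1897 CPM. Just inside the 5 CPM limit was PHYHD1 at 5.01 against 1.69 CPM, temporal against nasal, and just outside it was CHODL at 4.85 against 4.99 CPM.

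**Figure D1:**
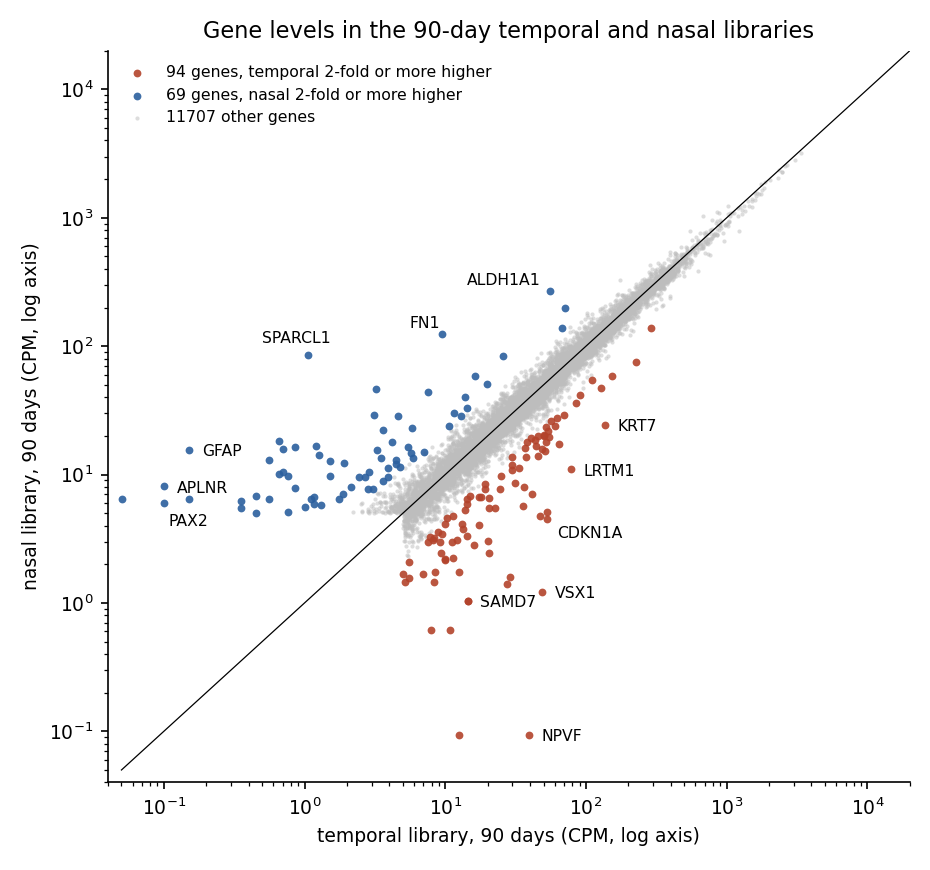
Level of each of the 11870 genes in the temporal library (x axis, CPM, log scale) and the nasal library (y axis, CPM, log scale), 1 library each; red points are the 94 genes 2-fold or more higher in the temporal library, blue points the 69 genes 2-fold or more higher in the nasal library, and the line marks equal levels. Most blue points lie far to the left, at under 5 CPM in the temporal library.

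The defining markers of neural retina were abundant in both libraries. PAX6, a master factor of eye development, was at 676 against 677 CPM and the photoreceptor gene RCVRN at 385 against 321 CPM, temporal against nasal. Defining markers of the pigment epithelium next to the retina were low on both sides, with RPE65 at 1.77 against 2.49 CPM, TYRP1 at 2.28 against 3.06 CPM and BEST1 at 2.07 against 2.12 CPM. Of 17 pigment epithelium and melanocyte genes in the table, 5 reached 5 CPM, with a median log2 ratio of 1.03. Of these 5, 3 were 2-fold or more higher in the temporal library, against 0.792% of all genes: TTR, SERPINF1 and TRPM1. Without the CPM filter, 6 of the 17 were higher, 10 lower and 1 level in the temporal library. Microglia markers were similar between the libraries, with CSF1R, the receptor that keeps these cells alive, at 10.2 against 9.12 CPM and CX3CR1 at 3.34 against 3.998 CPM.

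Genes of blood vessels were lower in the temporal library. Of 21 endothelial genes listed, 19 were in the table and 12 reached 5 CPM. Among those 12, 7 were 2-fold or more higher in the nasal library, against 0.581% of all genes, and the list's median log2 ratio was -2.15. Without the CPM filter, 15 of the 19 were lower and 4 higher in the temporal library. Among only those at 5 CPM in both libraries, which leaves out genes near 0 in the temporal punch, the median was 0.092. In a bulk punch, fewer cells of a type and less RNA per cell cannot be told apart.

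CDH5, which encodes the cadherin of endothelial junctions, had 11 reads (0.556 CPM) in the temporal library and 274 reads (12.9 CPM) in the nasal library, a difference of 23.2-fold (12.7 to 46.96), with the 95% interval in parentheses here and in what follows. PECAM1, an adhesion molecule between endothelial cells, had 1.21 CPM in the temporal library and 16.7 CPM in the nasal library. CLDN5, the main claudin of tight junctions at the blood-retina barrier, was at 0.758 CPM in the temporal library and 9.83 CPM in the nasal library. All 3 were near 0 in the temporal punch and well measured in the nasal punch. The tyrosine kinases of the angiopoietin system followed, with TIE1 at 0.354 against 5.503 CPM and TEK at 0.455 against 5.03 CPM, temporal against nasal. ENG, a coreceptor of vascular TGF beta signals, had 0.455 CPM in the temporal library and 6.87 CPM in the nasal library, and CD34 had 0.556 CPM in the temporal library and 6.396 CPM in the nasal library.

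Other vessel genes were among the largest ratios on the nasal side. APLNR, the apelin receptor of growing vessels, had 2 temporal reads and 172 nasal reads, or 0.101 against 8.09 CPM, a ratio of 79.99-fold (21.8 to 666). ELTD1, an endothelial adhesion receptor also called ADGRL4, had 1 temporal read and 136 nasal reads, a ratio of 126-fold (22.3 to 5032). ANGPT1, the ligand of TEK that steadies vessels, was at 0.8596 CPM in the temporal library and 16.5 CPM in the nasal library, a difference of 19.1-fold (11.8 to 33.2). Further endothelial genes lay in the same range, with CD93 at 0.708 against 10.4 CPM, PCDH12 at 0.354 against 6.26 CPM and IGFBP7, a secreted protein of vessel walls, at 1.26 against 14.2 CPM.

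Not every gene of the endothelial list moved with them. KDR, the main VEGF receptor, which retinal progenitors also express in the mouse, was at 628 CPM in the temporal library and 612 CPM in the nasal library, and this gene made up most of the list's summed level. With KDR left out, a choice made after the values were seen, the other 18 genes summed to 52.6 CPM in the temporal and 128 CPM in the nasal library. FLT1, the decoy VEGF receptor, was at 17.8 against 28.5 CPM, ESAM at 8.65 against 7.71 CPM and MFSD2A, a lipid transporter of the barrier, at 16.1 against 13.4 CPM. VEGFA, the growth factor itself, was level at 98.3 against 99.9 CPM, and so was its regulator HIF1A at 609 against 597 CPM. EPAS1, the related hypoxia factor that endothelial cells express strongly, was instead 2.94-fold (2.56 to 3.38) higher in the nasal library, at 13.8 against 40.4 CPM.

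Genes of the vessel wall and of blood lay on the same side. RGS5, a marker of pericytes, was at 1.52 CPM in the temporal library and 12.7 CPM in the nasal library, a difference of 8.402-fold (5.75 to 12.7), and CSPG4, the NG2 proteoglycan of pericytes and glial precursors, was at 1.31 against 5.78 CPM. PDGFRB, which pericytes need to attach to vessels, differed less, at 26.3 against 41.01 CPM, and so did ACTA2 at 27.1 against 37.5 CPM. Of the 23 pericyte and fibroblast genes in the table, 19 were lower and 4 higher in the temporal library. The hemoglobin rows were HBA with 4.602 against 28.6 CPM and HBG2, the fetal gamma chain, with 3.29 against 15.5 CPM. HBA1, a defining red cell marker listed on its own row, was at 0 in both libraries. Of the 11 red blood cell genes in the table, 6 were lower in the temporal library and 5 were at 0 or level.

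Several astrocyte genes were near 0 in the temporal library as well. GFAP, the intermediate filament of astrocytes, had 3 reads in the temporal library and 329 reads in the nasal library, or 0.152 against 15.5 CPM, a ratio of 102-fold (34.6 to 497). PAX2, a transcription factor of the optic stalk and of astrocyte precursors, had 2 temporal and 127 nasal reads, or 0.101 against 5.97 CPM, a ratio of 59.1-fold (16.02 to 493). SPARCL1, a matrix protein that astrocytes secrete, was at 1.06 CPM in the temporal library and 85.03 CPM in the nasal library, a difference of 80.1-fold (52.2 to 129.7). PDPN, a surface glycoprotein, was at 4.75 against 11.5 CPM. These 4 made up the nasal calls among 7 measured genes of the astrocyte and optic nerve head list, against 0.581% of all genes. Each of the 4 was under 5 CPM in the temporal library and so passed the filter through the nasal library only. The list's median log2 ratio was -1.12, and 0.57 among those at 5 CPM in both libraries. Without the CPM filter, 9 of its 14 genes were lower, 4 higher and 1 level in the temporal library.

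The list also held genes that went the other way or stayed close. PDGFRA, the receptor of astrocyte and oligodendrocyte precursors, was 2.59-fold (2.07 to 3.25) higher in the temporal library, at 13.8 against 5.31 CPM. CD44 was at 122 against 81.6 CPM and S100B, which did not reach 5 CPM, at 4.096 against 2.07 CPM. Of 5 measured oligodendrocyte genes, 4 were above 0 and 1 below, and MBP, a myelin protein under 5 CPM, was at 1.57 against 2.26 CPM. Whether the nasal punch held more of the tissue next to the optic nerve head was not tested.

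The regional gap in these vessel and astrocyte genes was far smaller at 150 days. CDH5 was then at 24.5 against 35.3 CPM, CLDN5 at 88.1 against 85.4 CPM, RGS5 at 57.2 against 71.9 CPM, GFAP at 19.4 against 15.3 CPM and SPARCL1 at 146 against 131 CPM, temporal against nasal. In the temporal punch, the endothelial genes other than KDR summed to 64.6, 52.6 and 355 CPM over the ages of 50, 90 and 150 days. The nasal sums were 64.5, 128 and 385 CPM. At 50 days, in the authors' means, most of these genes were low on both sides, such as PECAM1 at 0.532 against 2.01 CPM and GFAP at 0.2004 against 1.33 CPM, while SPARCL1 already differed at 12.1 against 96.1 CPM.

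**Figure D2:**
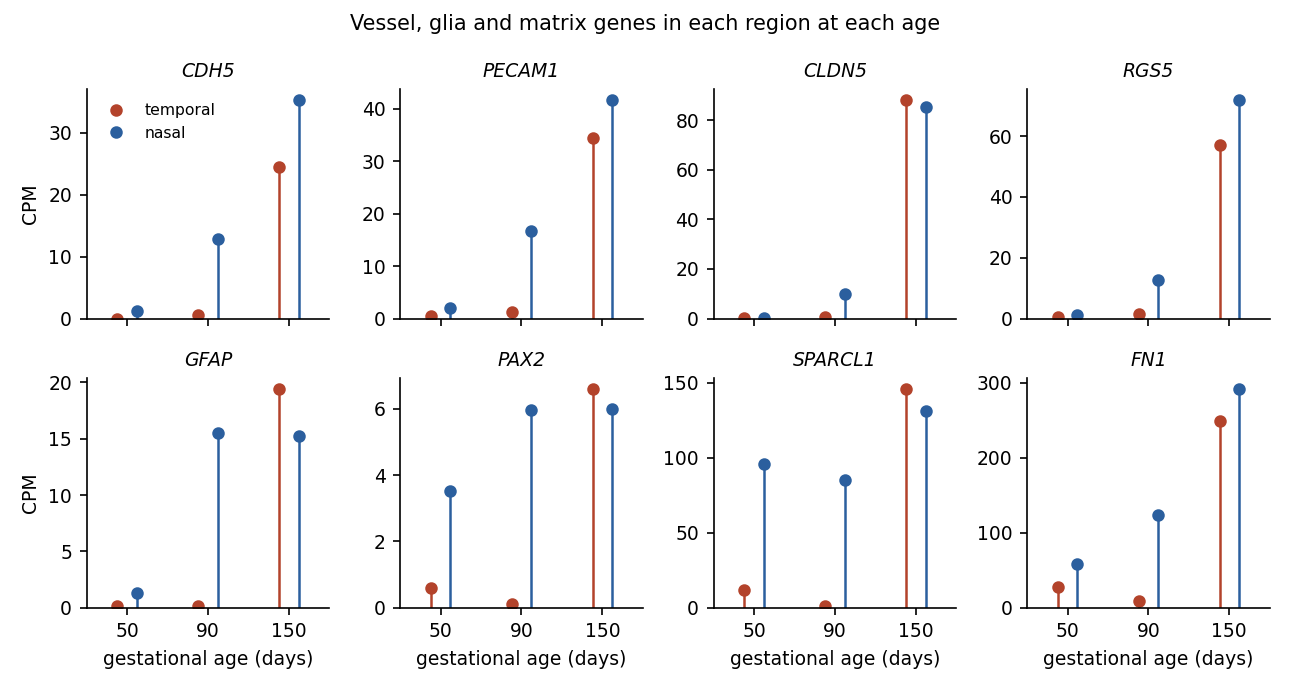
CPM of 8 genes (CDH5, PECAM1, CLDN5 and RGS5 of vessels, GFAP, PAX2 and SPARCL1 of astrocytes, and FN1 of the matrix) in the temporal (red) and nasal (blue) retina at 50, 90 and 150 days; points at 50 days are the authors' means of 3 libraries, and points at 90 and 150 days are 1 library each. At 90 days every temporal point lies below its nasal one, as for GFAP at 0.152 against 15.5 CPM, and at 150 days both regions are high, as for GFAP at 19.4 against 15.3 CPM.

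Extracellular matrix genes were lower in the temporal library for 25 of 33 measured list members, against 44.7% of all genes, with a median log2 ratio of -0.34. Of the 33, 4 were 2-fold or more lower, against 0.581% of all genes. FN1, fibronectin, had 9.56 CPM in the temporal library and 124 CPM in the nasal library, a difference of 12.99-fold (11.2 to 15.1). SPARC, a collagen-binding protein of basement membranes, had 25.8 against 83.6 CPM, temporal against nasal, and the microfibril gene FBN1 had 67.96 against 139 CPM. The basement membrane chains COL4A1 at 102 against 182 CPM and LAMC1 at 32.8 against 52.7 CPM were lower by less than 2-fold. Temporal levels were above nasal ones for VTN, vitronectin, at 5.41 against 2.304 CPM, and for TNR, a matrix protein of neurons, at 8.34 against 4.51 CPM. Further secreted proteins outside the list fell in the same nasal set: MMP9, a gelatinase, at 3.14 against 29.1 CPM, BGN at 0.657 against 10.2 CPM, IGFBP5 at 7.48 against 44.3 CPM, NID1, nidogen of basement membranes, at 3.59 against 22.4 CPM and APOD, an apolipoprotein, at 0.708 against 15.9 CPM.

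Genes of bipolar cells, which carry the signal from photoreceptors to ganglion cells, were higher in the temporal library. Of 19 measured genes of bipolar function, 8 were 2-fold or more higher in the temporal library, against 0.792% of all genes, and 18 had a log2 ratio above 0, with a median of 0.73. Without the filter, 21 of 22 were higher in the temporal library. The list of bipolar transcription factors had a smaller shift, with 10 of 14 above 0 and a median of 0.30.

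The proteins of the ON bipolar dendrite gave graded differences. GRM6, the glutamate receptor at which light responses of ON bipolar cells begin, was at 51.2 CPM in the temporal library and 34.4 CPM in the nasal library, or 1.49-fold (1.35 to 1.64) higher. TRPM1, the cation channel that this receptor closes, was at 20.1 CPM in the temporal library and 3.06 CPM in the nasal library, or 6.58-fold (5.05 to 8.69) higher. GPR179, which holds the receptor's regulators in place, was at 47.4 CPM in the temporal library and 4.797 CPM in the nasal library, or 9.88-fold (8.04 to 12.2) higher. The receptor thus differed less between the punches than its channel and its scaffold. NYX, the leucine-rich repeat protein that anchors TRPM1, was under 5 CPM, with 56 temporal reads and 0 nasal reads. With the nasal side set to a floor of 3 reads the ratio was 20.1-fold, which is not the lower limit of a counting interval. Of the G protein parts, GNG13 was at 17.8 against 6.63 CPM and GNAO1 at 136 against 102 CPM, temporal against nasal.

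For LRTM1, whose product is a membrane protein with leucine-rich repeats, the level was 78.7 CPM in the temporal library and 10.96 CPM in the nasal library, and PCP2, a modulator of G proteins in ON bipolar cells, was at 22.7 CPM in the temporal library and 5.46 CPM in the nasal library. The difference was 7.18-fold (6.26 to 8.28) for LRTM1 and 4.16-fold (3.39 to 5.15) for PCP2. GRIK1, a kainate receptor of OFF bipolar cells, was at 69.3 against 35.3 CPM. TMEM215, a membrane protein of bipolar cells, was at 52.5 against 5.08 CPM, and NETO1, an auxiliary subunit of kainate receptors, was at 27.6 against 1.41 CPM. PRKCA, the kinase by which rod bipolar cells are usually recognised, was close between the libraries at 54.7 against 50.7 CPM, and SCGN, a calcium sensor, was the one measured member lower in the temporal library, at 4.25 against 6.21 CPM. Among the transcription factors, VSX1 stood apart at 48.6 against 1.22 CPM. IRX5 and IRX6, homeobox factors of cone bipolar subtypes, were at 53.9 against 30.99 CPM and 49.9 against 29.9 CPM, while LHX3 was at 59.4 against 40.7 CPM and BHLHE22 at 46.6 against 47.1 CPM.

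At 150 days 12 of the 19 bipolar function genes were above 0 and 7 below, against 41.9% and 58.0% of all genes at that age. GPR179 was then at 163 against 157 CPM, TRPM1 at 121 against 117 CPM, LRTM1 at 157 against 178 CPM and VSX1 at 97.5 against 101 CPM, while PCP2 at 34.4 against 69.5 CPM and LHX3 at 50.3 against 127 CPM were lower in the temporal library. Of the 14 bipolar transcription factors, 3 were above 0 and 11 below at that age. Over the ages of 50, 90 and 150 days, the bipolar function list had median log2 ratios of 0.08, 0.73 and 0.06. Of the 3 ages, the median was highest at 90 days.

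Photoreceptor genes formed the next temporal group. The cone list had 12 of 15 members above 0, against 55.3% of all genes, 3 of them 2-fold or more, with a median of 0.68. The list of structures that rods and cones share had 18 of 20 above 0, 4 of them 2-fold or more, with a median of 0.40, and the rod list had 8 of 10 above 0, with a median of 0.52. Of the 54 measured genes on the photoreceptor lists together, 10 were 2-fold or more higher in the temporal library and 0 in the nasal library, against 0.792% and 0.581% of all genes.

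GUCA1C, an activator of the guanylate cyclase of cones, had 246 temporal and 2 nasal reads, or 12.4 against 0.0941 CPM, a ratio of 132-fold (36.2 to 1098). A second row that the file labels GUCA1C, and that the gene name table gives as its relative GUCA1A, had 157 temporal and 13 nasal reads, so the 2 rows may share reads of near-identical genes. PDE6C, the catalytic subunit of the cone phosphodiesterase, was at 17.3 CPM in the temporal library and 6.63 CPM in the nasal library, and its inhibitory partner PDE6H was at 41.2 against 7.102 CPM. The cone transducin subunits differed by less, with GNAT2 at 16.3 against 9.78 CPM and GNGT2 at 19.4 against 10.5 CPM, temporal against nasal. RXRG, a nuclear receptor of early cones, was at 244 against 200.3 CPM and THRB, the thyroid hormone receptor that directs cone type, was lower at 58.2 against 75.5 CPM. Late cone genes were hardly detected. The opsin OPN1SW had 9 temporal reads and 0 nasal reads, a ratio of 3.23-fold with the nasal side set to a floor of 3 reads. ARR3, cone arrestin, was at 1.57 against 1.32 CPM.

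Among rod genes, SAMD7, a transcriptional regulator of photoreceptors, was 14.03-fold (9.09 to 22.7) higher in the temporal library, at 14.5 CPM in the temporal library and 1.03 CPM in the nasal library. The rod-determining factors did not share this: NRL was at 168 against 158 CPM and NR2E3 at 33.1 against 40.3 CPM. CRX and OTX2, which act in both photoreceptor types, were at 131 against 94.01 CPM and 300.3 against 256 CPM, and PRDM1 was lower in the temporal library at 184 against 248 CPM. The list of photoreceptor transcription factors had a median of 0.05, and its one member past 2-fold was RAX2, a homeobox factor of maturing photoreceptors, at 43.6 against 18.4 CPM.

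Shared structural genes past 2-fold were MPP4, a scaffold of photoreceptor terminals, at 9.41 against 2.45 CPM, IMPG1 of the matrix around outer segments at 9.46 against 3.43 CPM, the retinol enzyme RDH12 at 14.4 against 6.49 CPM and TTR at 11.1 against 3.01 CPM. TTR, transthyretin, is better known as a pigment epithelium and choroid plexus product. The most abundant members differed by less: RBP3, which carries retinoids between cells, was at 353 against 211 CPM, RP1 at 179 against 123 CPM and ABCA4 at 63.4 against 37.7 CPM, temporal against nasal. At 150 days the cone list's median log2 ratio was 0.26 and that of the shared list was 0.06.

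**Figure D3:**
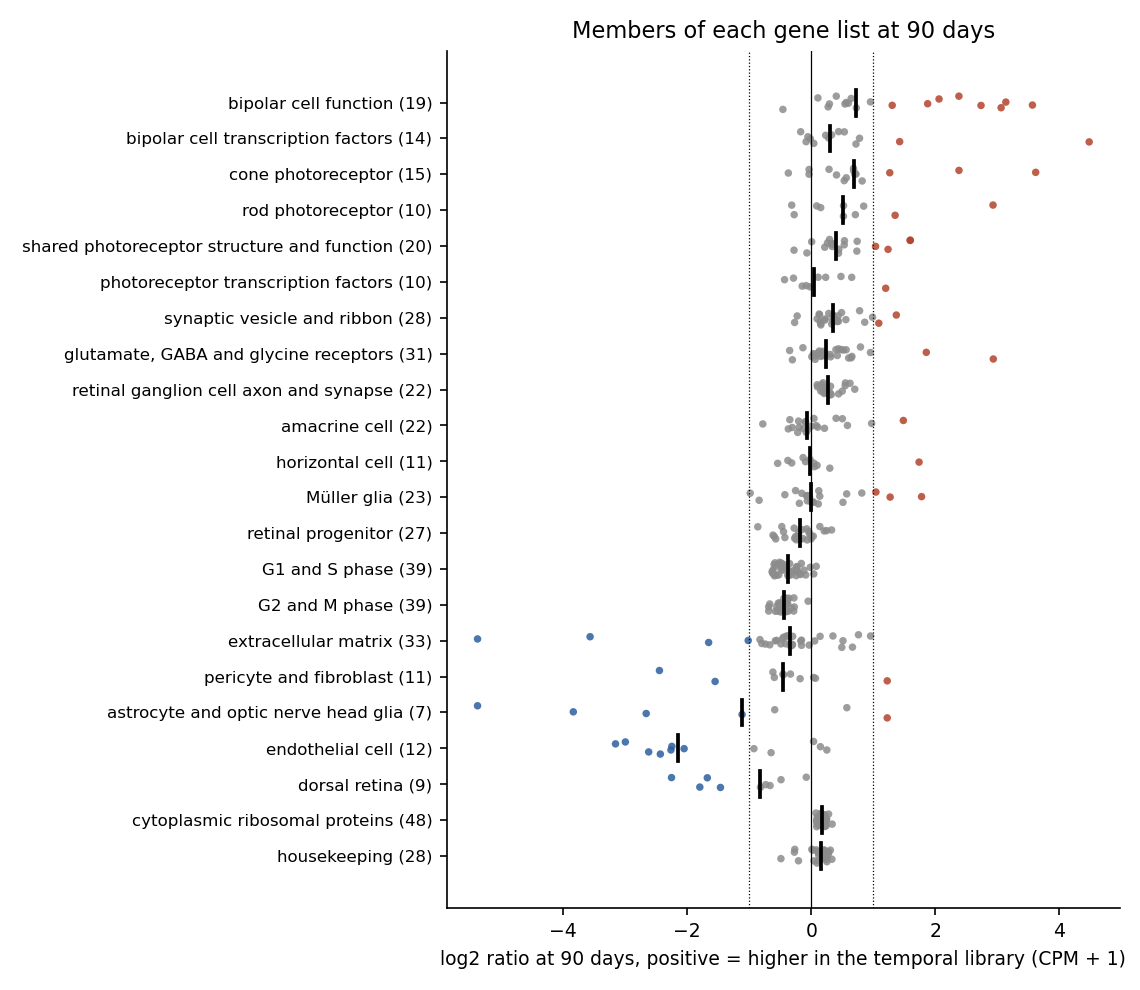
Log2 ratio of temporal over nasal CPM (1 CPM added) at 90 days for the measured members of 22 gene lists, with the number of members in parentheses; each point is a gene, red where the temporal library was 2-fold or more higher and blue where the nasal library was, and each black bar is the list's median. The bipolar function list has its median at 0.73, the endothelial list at -2.15 and the list of G2 and M phase genes at -0.44.

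Synaptic genes were higher in the temporal library nearly throughout, by small amounts. Of 28 measured genes of synaptic vesicles and ribbons, 26 were above 0, against 55.3% of all genes, with a median of 0.35, and 2 passed 2-fold. UNC119, a lipid-binding protein of photoreceptor ribbon synapses, was at 152 CPM in the temporal library and 58.1 CPM in the nasal library, and LRIT1, a photoreceptor synaptic protein, was at 11.3 against 4.797 CPM. The ribbon synapse calcium channel followed, with CACNA1F at 33.6 against 16.5 CPM and its partner CACNA2D4 at 32.9 against 17.6 CPM. SLC17A7, the vesicular glutamate transporter of photoreceptors and bipolar cells, was at 144 against 83.4 CPM. General vesicle proteins were closer, such as SYP at 343 against 232 CPM and VAMP2 at 150.4 against 137 CPM, and BSN, the cytomatrix protein bassoon, was lower at 129 against 151 CPM.

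Of 31 measured transmitter receptor subunits, 28 were above 0, against 55.3% of all genes, with a median of 0.23. Ribosomal protein genes had 48 of 48 above 0 and a median of 0.17. GABRR1, which forms the GABA receptor of bipolar terminals, was at 14.6 CPM in the temporal library and 1.03 CPM in the nasal library, a difference of 14.1-fold (9.12 to 22.8). Of the 31, 2 were past 2-fold in the temporal library and 0 in the nasal library. GRIK3 was at 32.2 against 41.2 CPM and GRM5 was at 5.87 against 2.96 CPM, temporal against nasal. SLC1A7, a glutamate transporter of photoreceptors and bipolar cells outside these lists, was at 64.5 against 17.2 CPM.

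Genes of ganglion cell axons were above 0 for 22 of 22 list members, against 55.3% of all genes, with a median of 0.26, and 0 of them passed 2-fold. This median was above those of ribosomal protein and housekeeping genes, at 0.17 and 0.16, by a small amount. Members of the axon list included the neurofilament genes NEFM at 625 against 384 CPM and NEFL at 957 against 655 CPM. Others were SNCG at 221 against 151 CPM and SYT4 at 1223 against 793 CPM. TUBB3, the neuronal tubulin, was at 1205 against 1036 CPM, and GAP43, a growth cone protein, was at 376 against 307 CPM. PRPH, a filament of peripheral and ganglion cell axons outside the list, read on the more abundant of its 2 rows, was 2.08-fold (1.99 to 2.17) higher, at 288 against 139 CPM. At 150 days the same list had a median log2 ratio of 0.78, and at 50 days one of -0.21.

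Amacrine and horizontal cell genes were even between the punches. The medians were -0.07 over 22 amacrine genes and -0.02 over 11 horizontal cell genes. TFAP2A, a factor shared by both cell types, was at 121 against 118 CPM, GAD2, which makes GABA, at 50.97 against 58.5 CPM and PROX1 at 67.6 against 54.7 CPM, temporal against nasal. The exceptions were CALB1, a calcium buffer of horizontal cells and some cones, at 31.2 CPM in the temporal library and 8.65 CPM in the nasal library, and C1QL2, a synaptic organiser, at 13.2 against 4.09 CPM. SLC5A7, the choline transporter of starburst amacrine cells, was lower in the temporal library at 30.9 against 53.9 CPM. Of the peptides, TAC1 was at 55.7 against 39.6 CPM, CARTPT at 3.08 against 5.46 CPM and NPVF, RFamide-related peptide, at 783 against 2 reads, a ratio of 421-fold (116 to 3482).

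Genes of Müller glia, the radial support cells of the retina, were split. Of 23 measured, 11 were above 0 and 12 below, with a median of -0.01. Higher in the temporal library were ABCA8, a lipid transporter, at 10.01 against 2.21 CPM, FRZB, a secreted Wnt antagonist, at 25.03 against 9.78 CPM, and CA2, a carbonic anhydrase, at 7.84 against 3.29 CPM. RLBP1, which binds retinoids, was at 52.7 against 29.5 CPM and SLC1A3, the glutamate transporter of glia, at 128 against 85.7 CPM. In contrast, APOE was at 11.8 against 24.4 CPM, CRYM at 15.1 against 27.8 CPM and GLUL, glutamine synthetase, at 223 against 235 CPM.

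Cell cycle genes were lower in the temporal library almost without exception, by amounts under 2-fold. Of 39 genes of G2 and M phase, 39 were below 0, against 44.7% of all genes, with a median of -0.44 and a range of -0.69 to -0.05. Of 39 measured genes of G1 and S phase, 37 were below 0, with a median of -0.38. In all, 0 of these 78 genes passed 2-fold in either direction.

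FOXM1, which switches on mitotic genes, was at 63.7 against 103 CPM and ASPM, a spindle protein, at 110.5 against 179 CPM, temporal against nasal. CCND1, the cyclin of retinal progenitors, was at 676 CPM in the temporal library and 1039 CPM in the nasal library, or 1.54-fold (1.503 to 1.57) higher in the nasal library. E2F7 was at 24.8 against 39.04 CPM, CDK4 at 115 against 123 CPM and CCNB1, the mitotic cyclin, at 68.01 against 88.2 CPM. At 150 days the medians were -0.77 for G2 and M phase and -0.50 for G1 and S phase, at far lower levels: the summed CPM of the G2 and M genes was 3382 in the temporal and 4700.3 in the nasal library at 90 days, and 344 and 499.9 CPM at 150 days. At 50 days the median for G2 and M phase was 0.19.

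Against this background CDKN1A, the p21 inhibitor of cyclin-dependent kinases, was 11.7-fold (9.51 to 14.6) higher in the temporal library, at 52.4 CPM in the temporal library and 4.47 CPM in the nasal library. It was the one gene of 11 on the cell cycle exit list past 2-fold. CDKN1B, the related inhibitor p27, was even at 263 against 252 CPM, and CDKN2C was lower in the temporal library at 47.5 against 66.1 CPM. CDKN1A stood at 15.2 against 12.01 CPM at 50 days and at 131 against 80.1 CPM at 150 days.

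Progenitor genes leaned the same way as the cell cycle, with 22 of 27 below 0, against 44.7% of all genes, and a median of -0.18. FOXP1, a factor of early progenitors, was at 34.3 against 63.3 CPM, NR2E1 at 169 against 257 CPM, LHX2 at 152 against 204 CPM and RAX at 317 against 382 CPM, temporal against nasal. SOX2 was at 195 against 224 CPM. Of 25 genes of the Notch pathway, which holds progenitors in division, 16 were below 0, against the same 44.7%, with a median of -0.21. The ligands divided, with DLL3 at 65.5 against 107 CPM, DLL4 at 73.1 against 107 CPM and DLL1 at 49.5 against 37.1 CPM.

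Genes that mark dorsal retina were lower in the temporal library. The dorsoventral list was divided into dorsal and ventral genes by their known roles after the values had been seen. All 9 measured dorsal genes were below 0, against 44.7% of all genes, with a median of -0.82. Of the 9, 4 were 2-fold or more lower, against 0.581% of all genes. The remaining dorsal gene, under 5 CPM, was above 0. TBX5, the transcription factor at the top of dorsal identity, was at 16.2 CPM in the temporal library and 58.7 CPM in the nasal library, or 3.63-fold (3.21 to 4.12) higher in the nasal library. ALDH1A1, the dorsal enzyme that makes retinoic acid, was at 55.3 CPM in the temporal library and 268 CPM in the nasal library. GDF6, a dorsal BMP ligand, was at 3.49 against 13.4 CPM, and EFNB2, the ephrin of dorsal retina, was at 71.1 against 198 CPM, temporal against nasal. TBX3 at 55.4 against 88.5 CPM and EFNB1 at 92.1 against 154 CPM were lower by less than 2-fold, and TBX2 at 364 against 385 CPM was nearly level.

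Ventral genes did not form a single group. VAX2, the homeobox factor that opposes TBX5 ventrally, was 2.28-fold (2.004 to 2.603) higher in the temporal library, at 36.7 CPM in the temporal library and 16.1 CPM in the nasal library. SMOC1 was at 64.9 against 46.00 CPM and ALDH1A3, the ventral enzyme for retinoic acid, at 9.05 against 7.15 CPM. The ventral receptors EPHB2 at 153 against 174 CPM and EPHB3 at 30.04 against 39.8 CPM, and NR2F1 at 60.5 against 90.6 CPM, were lower in the temporal library. PAX2, counted with this list as an optic stalk gene, is given with the astrocyte genes above, and its relative PAX8 was at 0.152 against 6.49 CPM.

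At 150 days 4 of the 9 dorsal genes were above 0 and 5 below, close to the 41.9% and 58.0% of all genes at that age. Of the 7 ventral genes 1 was above 0 and 6 below. Some genes lay on the opposite side to that at 90 days. TBX5 was then at 7.95 against 0.0499 CPM and VAX2 at 29.6 against 89.3 CPM, EFNB2 was at 51.2 against 31.3 CPM, and ALDH1A3 was at 5.39 against 37.02 CPM, temporal against nasal. Others kept their side, with TBX3 at 35.4 against 59.8 CPM, ALDH1A1 at 4.52 against 7.93 CPM and NR2F1 at 30.2 against 69.5 CPM. At 50 days the authors' means had TBX5 at 16.3 against 35.6 CPM and VAX2 at 4.35 against 2.34 CPM, on the same sides as at 90 days. The labels give no vertical position of the punches, and whether that position differed between the temporal and nasal punch of an age was not tested.

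**Figure D4:**
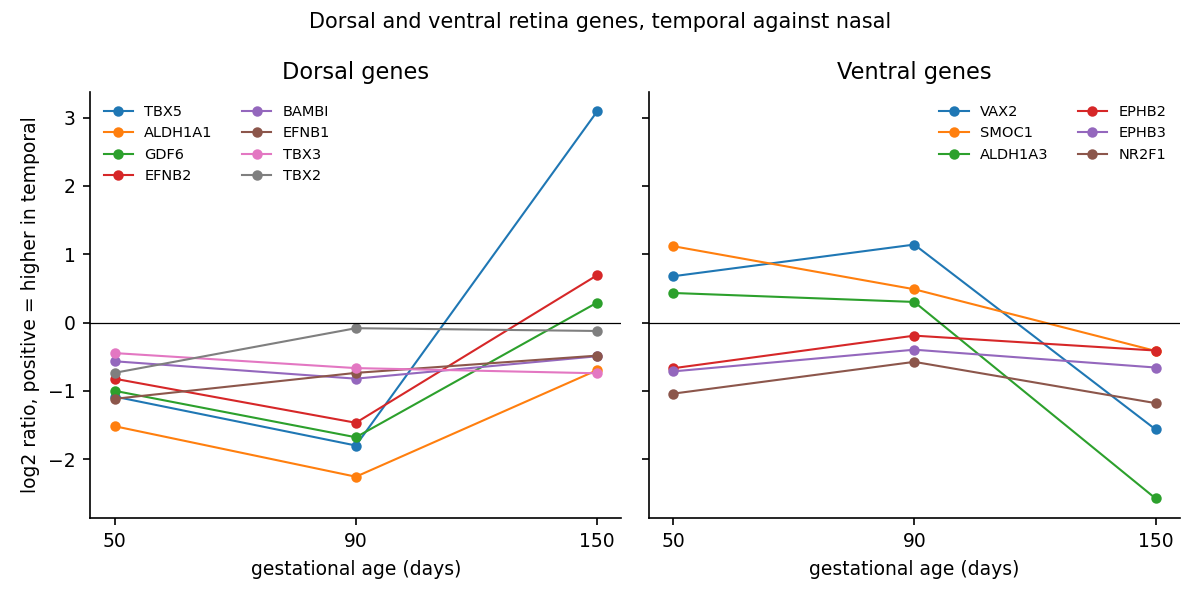
Log2 ratio of temporal over nasal CPM (1 CPM added) at 50, 90 and 150 days for 8 dorsal genes (left) and 6 ventral genes (right); the 50-day points come from the authors' means of 3 libraries and the others from 1 library per region, and the dorsal gene BMP2 and the optic stalk gene PAX2 are not drawn. TBX5 is at -1.80 at 90 days and 3.09 at 150 days, and VAX2 is at 1.14 and -1.56.

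The retinoic acid list shares ALDH1A1 and ALDH1A3 with the dorsal and ventral genes. CYP26A1, which breaks retinoic acid down, was at 28.7 CPM in the temporal library and 1.599 CPM in the nasal library, and CYP1B1, which can make retinoic acid independently of the ALDH1A enzymes, was at 0.657 CPM in the temporal library and 18.3 CPM in the nasal library. Most receptors and binding proteins were close, with RARA at 170.1 against 163 CPM, RXRA at 21.3 against 21.2 CPM and CRABP1 at 773 against 693 CPM. RARG was at 4.05 against 8.28 CPM, CRABP2 at 2.58 against 5.13 CPM and RARB at 22.9 against 29.1 CPM. Of 19 measured genes of this list 10 were above 0, with a median of 0.01. Thus 3 metabolic enzymes passed 2-fold and no receptor did, though RARG fell short only after 1 CPM was added, at a log2 ratio of -0.88.

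Genes known to be graded along the nasal to temporal axis differed by less than 2-fold. The nasal homeobox factor HMX1 was at 102 against 174 CPM, and the ephrins EFNA2 and EFNA5 were at 23.4 against 34.4 CPM and 14.97 against 27.8 CPM. On the temporal side, the receptors EPHA3 at 39.7 against 24.6 CPM, EPHA5 at 408 against 326 CPM and EPHA7 at 59.7 against 42.3 CPM were higher in the temporal library. Of 7 genes on the temporal list 6 were above 0, against 55.3% of all genes. Of 5 measured genes on the nasal list 4 were below 0, against 44.7%. The exceptions were NR2F2 of the temporal list, at 134 against 183 CPM, and EPHA6 of the nasal list, at 7.69 against 5.36 CPM. EPHA6 is a receptor of the same family as EPHA3, EPHA5 and EPHA7, and lay on their side. The named ephrin ligands were thus lower, and the named receptors higher, in the temporal library.

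Among 42 axon guidance genes, 5 were 2-fold or more higher in the temporal library and 1 in the nasal library, with a median of -0.02. The shares of all genes were 0.792% and 0.581%. Temporal genes were the netrin relatives NTNG1 at 60.2 against 23.99 CPM, NTNG2 at 56.1 against 25.9 CPM and NTN4 at 38.03 against 17.9 CPM, the receptor EPHA8 at 85.3 against 36.2 CPM and the secreted semaphorin SEMA3C at 19.2 against 8.42 CPM. PLXND1, the plexin of endothelial cells, was at 5.41 against 16.5 CPM, and PLXNC1 fell just short of 2-fold at 174 against 329 CPM. Of 25 Wnt pathway genes, 19 were below 0, against 44.7% of all genes, with a median of -0.19. LEF1 was at 7.03 against 15.1 CPM and TCF7 at 15.6 against 30.3 CPM, both nuclear partners of beta-catenin. Of 17 FGF pathway genes 12 were below 0, against the same 44.7%. These included targets of the pathway, ETV4 at 2.83 against 7.76 CPM, ETV5 at 70.2 against 106 CPM and IL17RD at 29.99 against 50.98 CPM. Of 28 genes of BMP and TGF beta signalling 23 were below 0, against the same 44.7%. TGFBR2, a receptor rich in vessels, was at 1.16 against 5.88 CPM and BAMBI at 61.6 against 109 CPM.

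Several of the largest temporal ratios belonged to genes on no list of neural cell types. KRT7, an epithelial keratin, was at 136 CPM in the temporal library and 24.3 CPM in the nasal library, or 5.605-fold (5.099 to 6.17) higher, and stayed higher at 150 days with 433 against 119 CPM. IGF1, the growth factor, was at 20.6 CPM in the temporal library and 2.45 CPM in the nasal library, and WFDC1, a secreted protease inhibitor, was at 35.8 CPM in the temporal library and 5.69 CPM in the nasal library. C1orf61, given in the gene name table as the host gene of a microRNA, MIR9-1HG, was at 15.9 against 2.82 CPM. LYZ, lysozyme, was at 11.4 against 2.26 CPM, although the microglia genes AIF1 at 1.82 against 1.65 CPM and TYROBP at 0.506 against 0.4703 CPM were level. CD207, best known as langerin of dendritic cells, was at 10.8 CPM in the temporal library and 0.611 CPM in the nasal library. In the RefSeq gene map of the macaque CD207 is the next coding gene after VAX2, and it lay on the same side as VAX2 at 50, 90 and 150 days, with 23.5 against 10.1 CPM, 10.8 against 0.611 CPM and 2.61 against 13.8 CPM.

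Housekeeping and ribosomal protein genes were slightly higher in the temporal library. All 48 measured ribosomal protein genes were above 0, with a median of 0.17 and a highest value of 0.34, and 24 of 28 housekeeping genes were above 0, with a median of 0.16. The shift of all genes was 0.03. Glycolytic genes had a median of 0.21 over 23 genes of the hypoxia and glycolysis list, with ALDOC at 109 against 60.2 CPM and ENO2, the neuronal enolase, at 764 against 513 CPM. Stress genes did not differ by 2-fold: 0 of 8 immediate early genes and 0 of 14 genes of the heat shock and unfolded protein response did so, with medians of -0.07 and 0.13.

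The genes past 2-fold at 90 days were then followed in the libraries of the other ages, which share no library with them. Of the 94 temporal genes, 71 were above 0 at 50 days (75.5%, against 47.8% of all genes) and 66 at 150 days (70.2%, against 41.9%). Over the ages of 50, 90 and 150 days, their median log2 ratios were 0.19, 1.43 and 0.36. Of the 69 nasal genes, 66 were below 0 at 50 days (95.7%, against 52.1% of all genes) and 51 at 150 days (73.9%, against 58.0%). Their medians were -0.75, -1.81 and -0.27. Because the genes were selected for a large ratio at 90 days, medians closer to 0 at the other ages follow from the selection, and nothing is read from their size.

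Some of these genes were also 2-fold different at another age. Of the 94 temporal genes, 10 (10.6%, against 0.211% of all genes) were 2-fold or more higher in the temporal retina at 50 days, and 1 was in the nasal retina. At 150 days 16 (17.0%, against 1.18% of all genes) were higher in the temporal retina, which included KRT7, CALB1 and PRPH, and 4 in the nasal retina. Of the 69 nasal genes, 24 (34.8%, against 0.800% of all genes) were 2-fold or more higher in the nasal retina at 50 days, SPARCL1, FN1 and TBX5 among them, and 0 in the temporal retina. At 150 days 2 of the 69 (2.90%, against 1.10% of all genes) were higher in the nasal retina and 2 in the temporal retina.

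Most of the genes past 2-fold at 90 days had higher values at 150 days than in the 50-day means, in both regions. In the temporal retina, 85 of the 94 temporal genes (90.4%) were 2-fold or more higher at 150 than at 50 days, against 34.8% of all genes. In the nasal retina, 80 of the 94 (85.1%) were, against 32.0% of all genes. Of the 69 nasal genes, 49 (71.0%) rose by this measure in the temporal retina and 44 (63.8%) in the nasal retina. Genes on both sides of the 90-day comparison were thus mostly ones with higher levels at the later age, which was read from the authors' means at 50 days and a single library at 150 days. Ribosomal protein genes also differed between those columns. They summed to 4256 CPM at 50 days and 8875 CPM at 150 days in the temporal retina, and to 4554 and 11481 CPM in the nasal retina. Whether the 50-day means are on the same scale gene by gene was not tested.

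**Figure D5:**
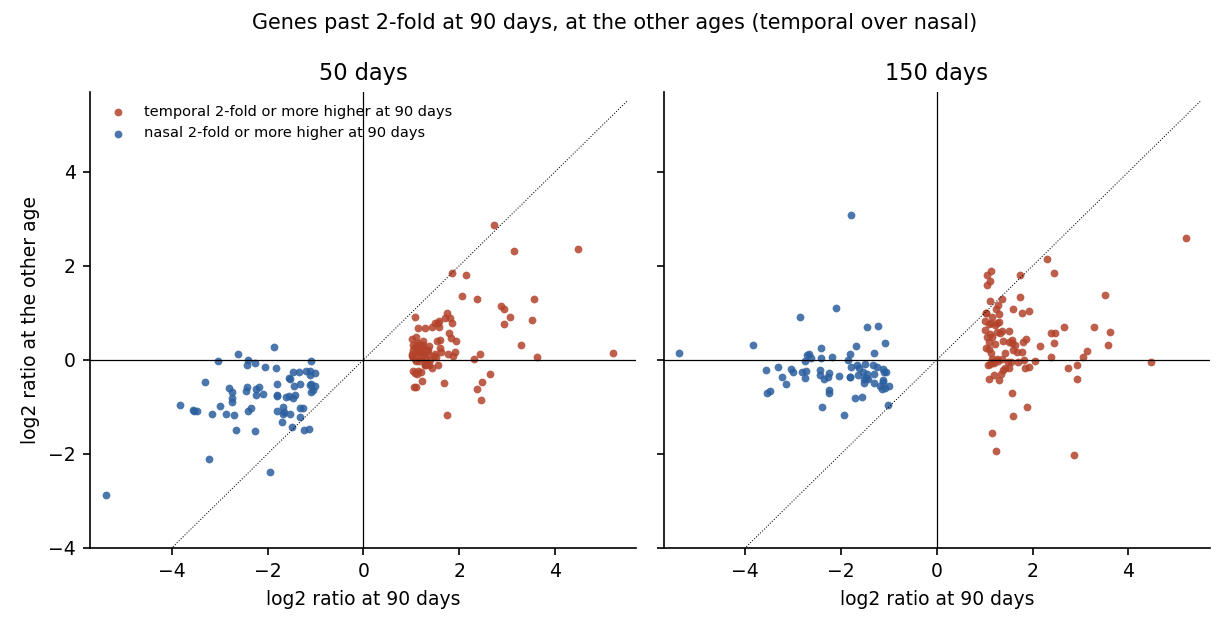
Log2 ratio of temporal over nasal CPM at 50 days (left) and 150 days (right) on the y axis, against that at 90 days on the x axis, for the 94 genes higher in the temporal library at 90 days (red) and the 69 genes higher in the nasal library (blue); the dotted line marks equal ratios. The medians at 50 and 150 days were, for the red points, 0.19 and 0.36 and, for the blue points, -0.75 and -0.27.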

How the data were processed

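Total RNA from retinal punches was sequenced for mRNA in 10 of the 16 samples of the series, and the authors aligned reads with a pipeline of Tophat and Cufflinks, and counted them per gene; edgeR is named in the processing notes with no role stated. The macaque build Mmul_1 is named in the sources, and the sources used here do not say which of the named programs gave the read counts behind the CPM. The authors deposited CPM at 90 and 150 days and, at 50 days, mean signal columns over 3 libraries, labelled as CPM, which sum to 1061800 (temporal) and 1023560 (nasal), so levels at 50 days are not on exactly the same scale as at the later ages. The deposited CPM were divided by the value of 1 read to recover the count of reads, of which 100% came out whole within 0.01 reads, giving 17429349 to 19851990 reads per library at 90 and 150 days. Intervals cover counting error only and are exact 95% Clopper-Pearson intervals.

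With 1 library a side, no p-value was computed for the 90-day comparison. Genes were kept at 5 CPM in either library, and 1 CPM was added before the log2. The members and the 50 gene lists were chosen with earlier results of these data known. Genes were named where they were among the 20 largest ratios in each direction, past 2-fold on a described list or its opposite cases, named in the study for this age, or among the 10 most abundant. FERMT1, HBA, IGFBP5, L1TD1, LYZ, NID1, NKX6-2, PCDH12, PRPH and SLC1A7, and the dorsal and ventral split, were chosen after their values were seen. Some genes that the naming rule covers are not reported here. Of the 11870 genes, 10888 names came from the table, 389 from a gene name table, and 593 stayed unnamed. Alternatives were the added constant, the scale, the filter, the call rule and an edgeR test (version 4.0.16, R 4.3.3). Scripts used Python 3.11.15, pandas 2.3.3 and SciPy 1.17.1. The ratio code was tested on simulated data: over 11774 genes, 100% of 200 genes changed 4-fold passed 2-fold. The changed genes were drawn from levels above the filter, with counting error alone. The simulation therefore does not cover low-count genes or variation between libraries.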

Additional observations from a re-analysis of the deposited data

Results flagged for a closer look

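For 7 genes past 2-fold at 90 days, the log2 ratio at another age was past 2-fold in the other direction, and none of these differences between ages was tested. At 50 days PAPLN was at -1.18 in the authors' means, against 1.74 at 90 days, from 2.54 against 7.001 CPM in those means and 20.6 against 5.46 CPM in the 90-day libraries, temporal against nasal. At 150 days CD207 was at -2.03, against 2.87 at 90 days, and VAX2 at -1.56, against 1.14. IGHM, an immunoglobulin chain, was at -1.20, against 1.59, and RRAD, a small GTPase, was at -1.94, against 1.24. TBX5 was at 3.09, against -1.80 at 90 days, and CP, ceruloplasmin, was at 1.10, against -2.11. CP had 1.52 against 9.83 CPM at the earlier of these ages, 90 days, and 159 against 73.6 CPM by 150 days. Each region of 90 and 150 days was a single library, so whether fetus, punch or age moved with these values cannot be told apart.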

How the results depend on the processing

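The reported counts were 94 genes 2-fold or more higher in the temporal library and 69 in the nasal library. Requiring 5 CPM in both libraries gave 52 and 18 genes, a temporal share of 74.3% against 57.7% as reported. The nasal count was 40 with 5 CPM added before the log, 42 with a filter of 10 CPM in either library and 121 with a filter of 1 CPM, and the temporal counts there were 63, 78 and 121. With 0.5 CPM added, the counts were 110 and 77, with total reads as the scale 95 and 76, with centring on the median 91 and 74, and with the whole counting interval beyond 2-fold 74 and 59. Medians of 39 of 50 lists kept their direction under each setting that gave a value, and the red blood cell list had no member at 5 CPM in both libraries. With 5 CPM in both libraries, the median turned to 0.092 for endothelial genes and 0.57 for astrocyte genes, because the members near 0 in the temporal library were left out, and to -0.14 for the pigment epithelium and melanocyte list, which was at -0.094 with a filter of 1 CPM. An edgeR quasi-likelihood test with age as a term, on the recovered reads of the 4 libraries of 90 and 150 days and with 1 residual degree of freedom, called 0 of 15102 genes at an adjusted p of 0.05, with 1378 at an unadjusted p under 0.05 and a lowest adjusted p of 0.0735, for CALB1. No other count test was run. That test sets temporal against nasal within each age. No paired analysis was possible because, within 90 days, the groups share a single replicate number, and the 50-day columns are pooled means. Depth limits genes at a few reads, where the counting interval is wide.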

Other observations

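Some genes on no fixed list were high at 90 days and near 0 at 150 days, and were named after their values were seen. NKX6-2, a homeobox factor, was at 54.2 against 19.5 CPM at 90 days, temporal against nasal, at 0.131 against 0.2705 CPM in the 50-day means and at 0.109 against 0 CPM at 150 days. FERMT1, an integrin adaptor, was at 14.4 against 3.34 CPM at 90 days and at 0.0544 against 0.0499 CPM at 150 days. L1TD1, an RNA-binding protein of pluripotent cells, was at 4.197 against 17.9 CPM at 90 days, at 23.4 against 19.3 CPM in the 50-day means and at 0 in both libraries at 150 days. NKX6-2 and FERMT1 were higher in the temporal library at 90 days and L1TD1 in the nasal library, each from 1 library per region.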
